A study of Mus musculus with 2 samples.

Results

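In all, 10 transcription factors that drive the formation of the epidermis were compared between the tooth and the skin of newborn mice: Trp63, Klf4, Klf5, Grhl1, Grhl2, Grhl3, Ovol2, Zfp750, Tfap2a and Cebpb. They were chosen by gene name from the rows of the array that are no controls. The name matched 10 genes of 24325 named genes on the array, with 15 probes of 55681, and each probe had 1 spot. Total RNA of wild-type (WT) tooth at postnatal day 0 (P0) and of WT skin at P0 was hybridised to 1 array per tissue. Neither group carried an allele or had received a treatment per the labels, and both arrays lay on the same slide. The age is that of the labels, and the study's methods put the tissues at postnatal day 1. How many animals gave RNA is not given in the sources used here. As n was 1 per tissue, no difference could be tested, and the error beside a value is that of the spot as the extraction software gives it, which leaves out animals and dissection.

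The epidermis is a stratified epithelium in which proliferating basal cells stop dividing, move outward and turn into the dead, cross-linked cells of the barrier. p63, the product of Trp63, sets up the stratified epithelial programme and is needed for skin, hair and teeth alike. Krüppel-like, grainyhead-like, AP-2 and C/EBP factors act within this programme on junction, envelope and lipid genes. The tooth contains epithelium of the same ectodermal origin, which matures into enamel-secreting ameloblasts and forms no cornified layer, together with a large dental mesenchyme.

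All 15 probes were well above background on both arrays, as were 60.9% of the 33182 probes with a gene name. Thus each of the 10 genes gave signal in both tissues. A level below is the log2 intensity minus the 75th percentile of its array, and a difference is the level in skin minus that in tooth. The processed intensity before scaling is given first. The 75th percentile was 428 in tooth and 276 in skin, so a probe of equal intensity on both arrays lay higher in skin by the ratio of these values after scaling. All 10 genes had a higher scaled level in skin, 7 of them by at least 2-fold, and none was 2-fold higher in tooth. Among the 17409 named genes measured above background on an array or both, 14.2% passed 2-fold toward skin and 15.5% toward tooth. The median difference of the 10 genes was 1.68, against -0.04 over all 17409 genes, of which 47.6% were higher in skin. When the arrays were scaled to their spike-in transcripts, every difference fell by 0.62. Then 5 of the 10 genes remained at least 2-fold higher in skin, beside 9.04% of all genes, and 8 of 10 lay higher in skin, with a median of 1.06.

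Trp63 was nearly level between the tissues. The brightest of its 4 probes (mm9 chr16:25892012-25892071, plus strand) had an intensity of 8497 ± 850 in tooth and 6146 ± 615 in skin (spot error, n = 1 each). After scaling the levels of 4.31 and 4.48 gave a difference of 0.16 ± 0.20, or 1.12-fold (0.973 to 1.29, the range given by the spot error, as for each fold below). The other 3 probes gave differences of 0.23 ± 0.24, 0.35 ± 0.20 and 0.49 ± 0.20. Thus 2 of the 4 probes showed a difference above the spot error, and none reached 2-fold. The direction rests on the scaling: the brightest probe was higher in tooth with spike-in scaling (-0.46) and with a median shift (-0.084). Another probe lies on a repeat of CAG and is shown because it reads a different stretch of the same gene. Its intensity was 5456 in tooth and 4490 in skin. The capitals mark the repeat.
Trp63 (mm9 chr16:25871159-25871218, plus strand): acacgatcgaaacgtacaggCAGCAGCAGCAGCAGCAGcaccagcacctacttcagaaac

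Ovol2 and Grhl2 keep epithelial cells epithelial. Ovol2 is a zinc-finger repressor of mesenchymal genes, and Grhl2 activates genes of the apical junction. Ovol2 (mm9 chr2:144131071-144131130, minus strand) had an intensity of 3094 ± 309 in tooth and 2720 ± 272 in skin. Its levels of 2.85 and 3.30 differed by 0.45 ± 0.20 (1.36-fold, 1.18 to 1.57). As for Trp63, the unscaled intensity was higher in tooth and the scaled level was higher in skin, and with spike-in scaling the difference was -0.18. Grhl2 was 2.70-fold higher in skin (2.35 to 3.11). Its brighter probe had an intensity of 1398 ± 140 in tooth and 2437 ± 244 in skin, giving levels of 1.71 and 3.14 and a difference of 1.43 ± 0.20. The dimmer probe, at 42.5 in tooth and 115 in skin, gave 2.07 ± 0.26, a larger difference in the same direction. With spike-in scaling the brighter probe came to 0.81, below 2-fold. Both stretches are shown because they read the same transcript at different places and gave different sizes. They start at bases 1360 and 4761 of the transcript. The dimmer is whole, and of the brighter, bases 16 to 45 of 60 are given.
Grhl2, dimmer probe (mm9 chr15:37239426-37239485, plus strand): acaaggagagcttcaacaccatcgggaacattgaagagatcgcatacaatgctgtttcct
Grhl2, brighter probe (within mm9 chr15:37293139-37293198, plus strand): aagcaggggagactcgtgtgtacaatctgt

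Tfap2a, which encodes AP-2 alpha, a regulator of surface ectoderm and neural crest, was 5.56-fold higher in skin (4.83 to 6.41). Its brighter probe, which matches transcript variants 1 and 2 per the array's annotation, had an intensity of 1559 ± 156 in tooth and 5596 ± 560 in skin. The levels were 1.87 and 4.34, and the difference was 2.48 ± 0.20. The other probe lies close to the start of variant 1 and holds ATG more than once, the first marked in capitals. Which of them starts the protein was not analysed here. It was dim, with 33.2 ± 5.65 for tooth RNA and 215 ± 22.1 for skin RNA. This gave 3.33 ± 0.29. The gap between the probes exceeded their spot errors, and both lay well above 2-fold. The stretches are shown because they separate the stretch common to both variants, of which bases 16 to 45 are given, from the start of variant 1.
Tfap2a, variant 1 (mm9 chr13:40829040-40829099, minus strand): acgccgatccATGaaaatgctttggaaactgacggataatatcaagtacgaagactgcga
Tfap2a, variants 1 and 2 (within mm9 chr13:40811044-40811103, minus strand): tatcatagtcctttgttgcccagataaata

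The factors of proliferating and suprabasal keratinocytes were all higher in skin, and 3 of the 4 by at least 2-fold. Cebpb, a leucine-zipper factor of differentiating keratinocytes, had an intensity of 2307 ± 231 in tooth and 7389 ± 739 in skin (mm9 chr2:167515828-167515887, plus strand). Its levels were 2.43 and 4.74, and the difference of 2.31 ± 0.20 equals 4.96-fold (4.31 to 5.72). Klf5, a Krüppel-like factor of proliferating epithelial cells, had an intensity of 1697 ± 170 in tooth and 4156 ± 416 in skin, and its levels were 1.99 and 3.91 (difference 1.92 ± 0.20, 3.80-fold). The Klf5 probe is shown because its 60 bases map to a span of 9733 bases in the genome. It thus crosses an exon junction and can bind only spliced RNA over its whole length.
Klf5 (mm9 chr14:99702656-99712388, plus strand): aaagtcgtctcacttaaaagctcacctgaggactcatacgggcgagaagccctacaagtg

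Klf4, which is needed for the skin barrier, was 2.36-fold higher in skin (2.05 to 2.72). Its intensity was 7283 ± 728 in tooth and 11102 ± 1110 in skin (mm9 chr4:55540167-55540226, minus strand). The levels of 4.09 and 5.33 differed by 1.24 ± 0.20. This lies just above the 2-fold line, and with a median shift (0.99) or spike-in scaling (0.62) it fell below it. Zfp750, a zinc-finger target of p63 that turns on terminal differentiation genes, lay just below the line. Its intensity was 1730 ± 173 in tooth and 2137 ± 214 in skin (mm9 chr11:121372670-121372729, minus strand), and the levels of 2.02 and 2.95 differed by 0.94 ± 0.20 (1.91-fold, 1.66 to 2.20).

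Grhl1 and Grhl3 are the grainyhead-like factors tied to desmosomal cadherins and to barrier formation. By the brightest probe of each gene, they had the largest differences of the 10. Grhl1 had an intensity of 182 ± 18.7 in tooth and 5986 ± 599 in skin. Its levels of -1.23 and 4.44 gave a difference of 5.67 ± 0.21 or 51.0-fold (44.2 to 58.9). Only 254 of the 17409 genes had a larger difference. Grhl3 had an intensity of 323 ± 32.6 in tooth and 1865 ± 187 in skin. Its levels of -0.41 and 2.76 gave a difference of 3.16 ± 0.21 or 8.95-fold (7.76 to 10.3). With spike-in scaling the differences were 5.05 for Grhl1 and 2.54 for Grhl3. The probe stretches of this pair (bases 16 to 45) are given as the source of the largest differences.
Grhl1 (within mm9 chr12:25302095-25302154, plus strand): aatagctggttttctaagatacgggatacg
Grhl3 (within mm9 chr4:135097991-135098050, minus strand): gccacctactgttgtacacatttcttattt

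**Figure D1:**
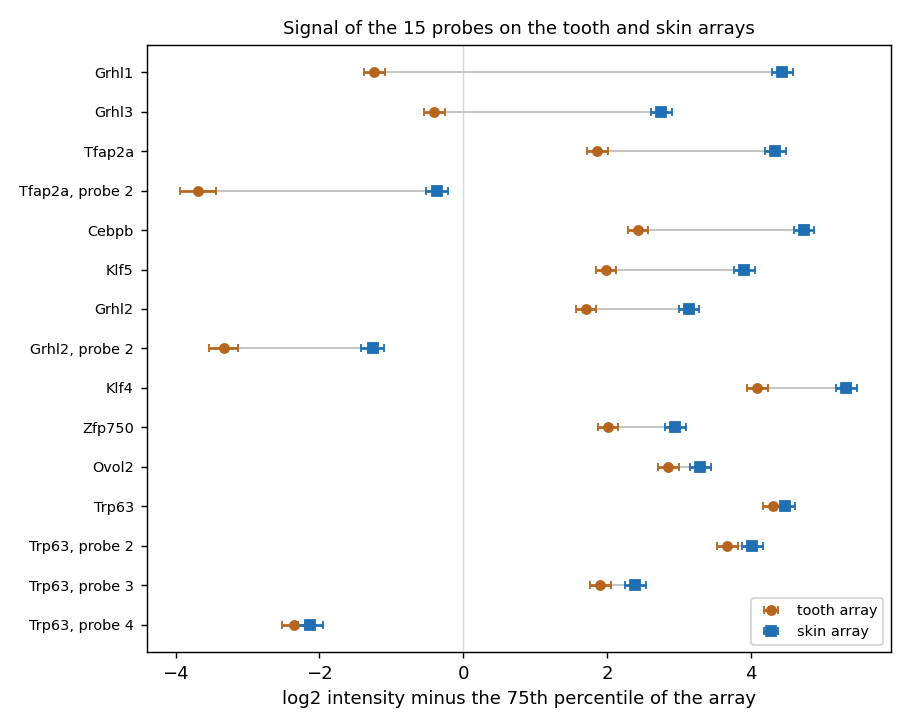
Level of each of the 15 probes on the tooth array (circles) and the skin array (squares), as log2 intensity minus the 75th percentile of the array, with bars for the spot error and n = 1 per tissue. The symbols lie farthest apart for Grhl1 (5.67) and close together for the 4 Trp63 probes (0.16 to 0.49), and levels of different probes are not comparable.

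Ordered by difference, the genes ran Grhl1, Grhl3, Tfap2a, Cebpb, Klf5, Grhl2, Klf4, Zfp750, Ovol2 and Trp63. Of the 9 gaps between neighbours in this order, 6 exceeded their spot error. Tfap2a and Cebpb (gap 0.16 ± 0.29), Grhl2 and Klf4 (0.19 ± 0.29), and Ovol2 and Trp63 (0.28 ± 0.29) could not be ordered within the spot error. Among the 17409 genes, the differences lay between the 61.5 percentile for Trp63 and the 98.5 percentile for Grhl1. Grhl3 was at the 95.7 percentile, Tfap2a at 94.2, Cebpb at 93.7 and Klf5 at 92.3. Thus the genes spanned the range from the middle of all genes to its upper end.

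**Figure D2:**
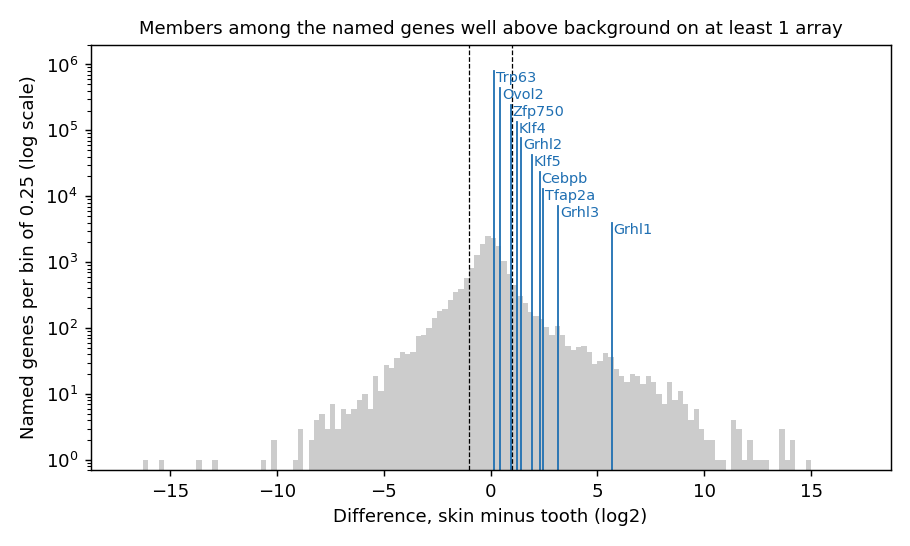
Histogram of the difference, skin minus tooth (log2), for the 17409 named genes well above background on at least 1 array, with the count per bin on a log scale, dashed lines at 2-fold and a line for each of the 10 genes. All 10 lie to the right of 0, from Trp63 at 0.16 to Grhl1 at 5.67, and 7 lie beyond the 2-fold line.

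Spike-in scaling, the median shift and the deposited table add a constant to every gene and cannot change the order of the 10 genes. Under normexp, quantile normalization and the mean of all probes, which could, the order was the same. That order takes the brightest probe or the mean of a gene's probes. By the dimmer probes, Tfap2a (3.33 ± 0.29) would lie above Grhl3 (3.16 ± 0.21) and Grhl2 (2.07 ± 0.26) above Klf5 (1.92 ± 0.20). In both pairs the ranges given by the spot errors overlap, so these pairs could not be ordered. Grhl1 ranged from 5.05 to 5.69 over the alternatives, Grhl3 from 2.54 to 3.18, Cebpb from 1.69 to 2.33 and Klf5 from 1.30 to 1.94. Tfap2a ranged from 1.85 to 2.90 and Grhl2 from 0.81 to 1.75, where the upper ends come from the mean of both probes. Of 8 spike-in transcripts measured on both arrays, 7 were equal between them to within 0.05 (log2) in unscaled signal.

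**Figure D3:**
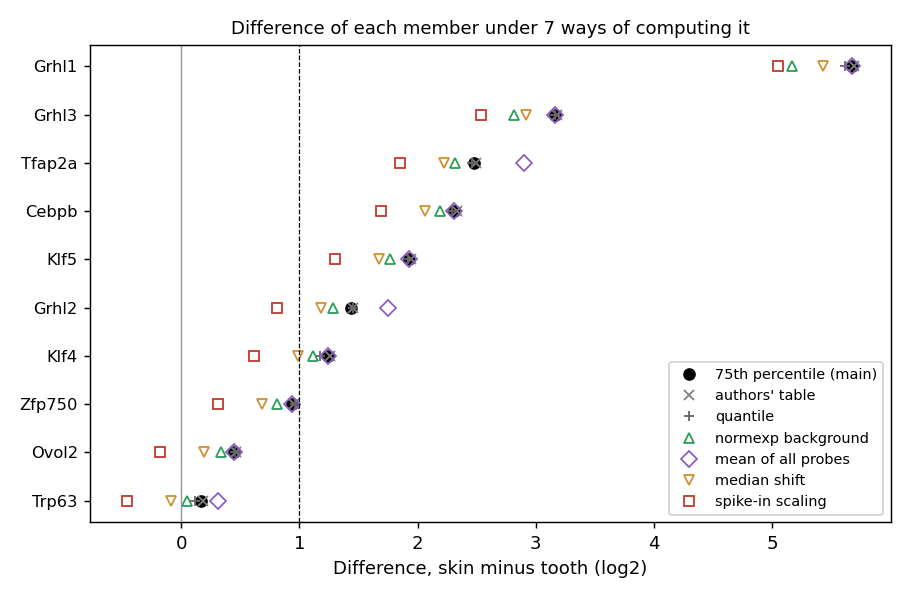
Difference, skin minus tooth (log2), of each gene under the main scaling to the 75th percentile and under 6 alternatives, with a solid line at 0 and a dashed line at 2-fold. Spike-in scaling gives the lowest value for every gene, it puts Trp63 at -0.46 and Ovol2 at -0.18, and the median shift puts Trp63 at -0.084.

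To set these genes beside their relatives, 43 other transcription factors were examined, of which 41 gave signal well above background in tooth, skin or both. In this list 19 genes (46.3%, beside 14.2% of all genes) passed 2-fold toward skin and 5 (12.2%, beside 15.5%) toward tooth. The median difference of the list was 0.73. With dim values at their bound, 4 passed toward tooth, as Cebpe then falls short. With spike-in scaling the counts were 14 (34.1%, beside 9.04% of all genes) and 7 (17.1%, beside 32.4%), and the median was 0.11. Within the families, some relatives differed more between the tissues than the gene they resemble. Ovol1, which acts in epidermal differentiation, had a difference of 5.39 (42.1-fold), against 0.45 for Ovol2. The AP-2 relatives Tfap2b (4.35) and Tfap2c (4.40) were 20.4-fold and 21.2-fold higher in skin, and Tfap2e was well above background in skin only, at least 66.3-fold. Tfap2d was well above background on neither array. Among C/EBP factors Cebpa was 25.4-fold higher in skin (4.66), beside 0.88 for Cebpg, 0.21 for Cebpz and -0.34 for Cebpd. Cebpe passed background in the tooth alone (at least 1.14-fold).

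The Krüppel-like relatives stayed closer to 0. Klf3 was 2.99-fold higher in skin (1.58) and Klf2, which is prominent in endothelium, was at the 2-fold line toward tooth (-1.0). The other 5 lay within 2-fold, from 0.01 for Klf7 to 0.73 for Klf6. The p53 relatives of Trp63 were near level, with 0.30 for Trp53 and -0.01 for Trp73. The CP2 factors, which are related to the grainyhead-like factors, all lay below 0 by their brightest probes. Ubp1 had -0.13, Tfcp2 -0.61 and Tfcp2l1 -2.60, which is 6.05-fold higher in tooth. With normexp background correction, 1 of these 3 lay above 0. Under the main scaling, the dimmer probes of Tfcp2 and Tfcp2l1 gave 0.03 and -1.61.

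Of 20 further regulators of epidermal and hair differentiation, 13 passed 2-fold toward skin and 2 toward tooth, or 9 and 3 with spike-in scaling. Gata3, which acts in the inner root sheath and the barrier, was 215-fold higher in skin (7.75). Pou3f1 followed with 6.23, Hopx with 3.24, Prdm1 with 2.41, Elf5 with 2.30, Ehf with 2.23, Junb with 1.89, Barx2 with 1.41, Casz1 with 1.39, Vdr with 1.24 and Fosl2 with 1.18. With spike-in scaling the last 4 of these fell below 2-fold by their brightest probes, at 0.78, 0.76, 0.62 and 0.55. Under the main scaling, other probes gave up to 3.49 for Barx2, 2.91 for Casz1 and 2.09 for Fosl2. Pou2f3 (at least 20.4-fold) and Fosl1 (at least 3.50-fold) were well above background in skin only. Satb1 (-2.76, 6.75-fold) and Maf (-2.52, 5.73-fold) were higher in tooth. By the brightest probe of each gene, those nearest to the median of the 10 were Klf3, with a gap of 0.10, Junb, with 0.21, and Barx2, with 0.27, over 2 arrays.

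Genes that these factors are known to act on were counted in lists written from textbook knowledge. Of 13 basal genes downstream of p63, 4 passed 2-fold toward skin and 1 toward tooth, with a median of 0.46. The 4 were Sfn (2.18), the desmosomal cadherin Dsc3 (1.47), Perp (1.28) and the basal keratin Krt14 (1.19). Fras1, which anchors the basement membrane, was 4.38-fold higher in tooth (-2.13). Itga6 lay within 2-fold by its brighter probe (-0.20), but its dimmer probe gave -4.39, higher in tooth. With spike-in scaling only Sfn (7.69% of the list) remained at least 2-fold higher in skin, and the median was -0.16. Then 4 genes (30.8%) were at least 2-fold higher in tooth. Of all genes, 9.04% passed toward skin and 32.4% toward tooth under that scaling, so both shares of the list lay near those of all genes.

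Of 12 junction and envelope genes tied to grainyhead-like factors, 9 passed 2-fold toward skin and none toward tooth, with a median of 2.49. The transglutaminase Tgm5 (at least 168-fold) and the tight-junction gene Cldn3 (at least 33.8-fold) were well above background in skin only. Ovol1 (5.39) belongs to this list too. The desmosomal cadherin Dsg1a had 3.73, Cldn4 3.69, Rab25 2.72, Tgm1 2.26, Esrp1 1.69 and Spint1 1.10. The classical Grhl2 targets Cdh1 (0.06) and Epcam (0.66) stayed within 2-fold, as did Cldn7 (0.35).

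Late differentiation genes had the largest median of these lists. Of 20, 18 passed 2-fold toward skin and none toward tooth, with a median of 7.38, or 7.01 with dim values at their bound. Krt1 was 979-fold higher in skin, Krt10 337-fold and Lor 554-fold. Flg had a difference of 12.89. The exceptions were Pla2g4e (0.87) and, by its brighter probe, Tgm3 (0.10). The dimmer Tgm3 probe, which passed background in the skin alone, had a measured difference of 5.62. With the mean of all probes, 19 of the 20 genes passed 2-fold toward skin.

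**Figure D4:**
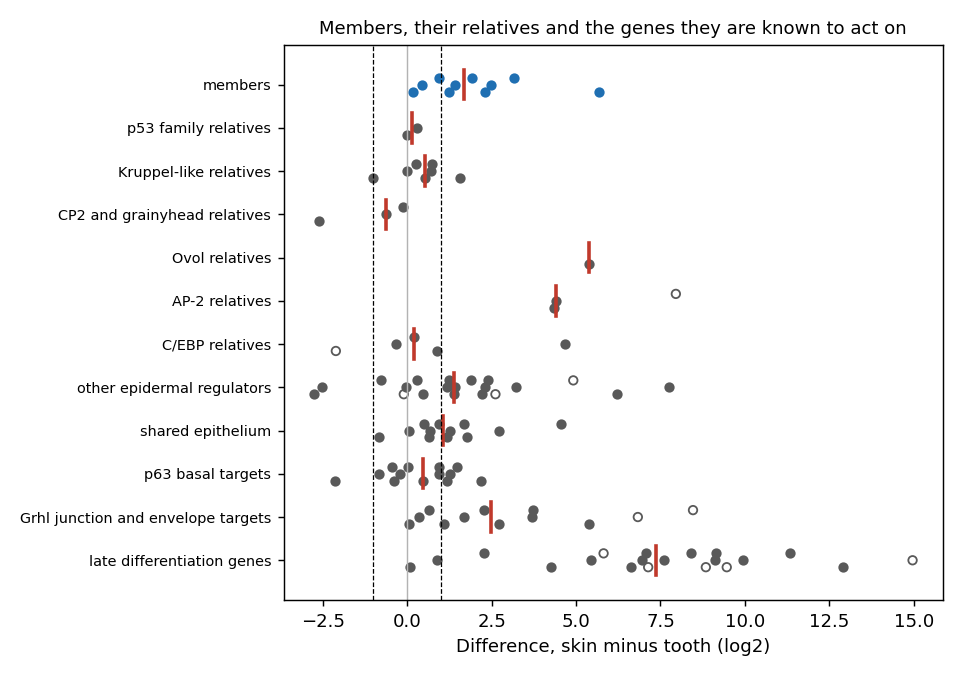
Difference, skin minus tooth (log2), of each gene in the list of 10, in 7 groups of other transcription factors and in 4 groups of downstream or epithelial genes. Filled points are genes well above background on both arrays, open points are genes well above background on 1 array at their measured value, red bars are medians and dashed lines mark 2-fold. The median is 1.68 for the 10 genes, 0.46 for p63 basal targets, 2.49 for the grainyhead-like targets and 7.38 for late differentiation genes.

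The arrays held whole tissues, in which fewer cells of a type and less RNA per cell cannot be told apart. Genes of epithelium in general were somewhat higher in skin: of 12, 6 passed 2-fold toward skin and none toward tooth, with a median of 1.07 and a summed level of 938 in tooth and 2056 in skin (linear, in multiples of the 75th percentile). That sum adds probes of unlike brightness and is carried mostly by Krt5, Krt17 and Perp. The 12 differences ran from -0.82 to 4.56, which takes in 9 of the 10 transcription factors, and 7 of the 12 genes are also in the lists of p63 or grainyhead-like targets. With spike-in scaling the median was 0.44. Relative to that median of 1.07, the differences were 4.61 for Grhl1, 2.09 for Grhl3, 1.41 for Tfap2a, 1.24 for Cebpb and 0.86 for Klf5. Those of Grhl2 (0.37), Klf4 (0.17) and Zfp750 (-0.13) lay close to it, and Ovol2 (-0.62) and Trp63 (-0.90) were below it. The mesenchyme list had 5 of 10 genes at least 2-fold higher in tooth, none in skin, and summed levels of 1569 in tooth and 367 in skin. All 10 mesenchyme genes were well above background on both arrays.

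The labelled tissues carried their own markers. All 6 enamel genes and all 6 odontoblast and bone genes were at least 2-fold higher in tooth, and all 6 genes of the cornified layer in skin. Of the enamel genes, Klk4 alone was well above background in skin too. Of the cornified-layer genes, 5 of 6 were also well above background in tooth, all but Ivl, with summed levels of 6.37 in tooth and 3764 in skin. Markers of other cells of the skin moved with the tissue as well. All 5 melanocyte genes, all 6 fat genes, all 6 muscle genes and 5 of 6 hair follicle genes were at least 2-fold higher in skin. With spike-in scaling these counts were 4, 5, 6 and 4, beside 9.04% of all genes. Under the main scaling, the macrophage list had 2 of 6 and the endothelium list 3 of 5 genes at least 2-fold higher in tooth. Of all genes, 15.5% were. The part of cell makeup in the differences of the 10 genes was not tested.

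The promoters of the genes were read for motifs of most of their own families, leaving out p63 and Zfp750. RefSeq windows on GRCm38.p6, from 250 bases before to 50 after each start, were at hand for 6 of the 10 genes (8 windows: Cebpb, Grhl1 with 2 starts, Grhl3, Klf4, Ovol2 and Tfap2a with 2 starts) and were not used here for Trp63, Klf5, Grhl2 and Zfp750. Both strands were searched for the AP-2 motif GCCNNNGGC, the Krüppel-like motif GGGNGTGGC, the grainyhead-like motif AACCGGTT, the C/EBP motif TTGCGCAA and the Ovol motif CCGTTA. The AP-2 motif was in 2 of the 8 windows, 1 of Grhl1 and that of Klf4, and in 16.6% of all 32851 windows. The others were in none of the 8 windows and in 5.76%, 0.146%, 0.183% and 2.76% of all windows. The promoters of the pair with the largest differences are given up to the base before the start, with the AP-2 match in capitals. That of Grhl1 holds 75.6% G and C and that of Grhl3 56.0%. The same stretch at the other start of Grhl1, not printed here, holds 52% and no motif match. Which start of Grhl1 gave the signal was not analysed here.
Grhl1 (GRCm38.p6 chr12:24572037-24572286, plus strand): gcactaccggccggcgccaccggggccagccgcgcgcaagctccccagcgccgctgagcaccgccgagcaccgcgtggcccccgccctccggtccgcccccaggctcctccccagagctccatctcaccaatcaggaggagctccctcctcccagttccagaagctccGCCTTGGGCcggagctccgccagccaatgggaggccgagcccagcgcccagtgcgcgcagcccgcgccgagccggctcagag
Grhl3 (GRCm38.p6 chr4:135573633-135573882, minus strand): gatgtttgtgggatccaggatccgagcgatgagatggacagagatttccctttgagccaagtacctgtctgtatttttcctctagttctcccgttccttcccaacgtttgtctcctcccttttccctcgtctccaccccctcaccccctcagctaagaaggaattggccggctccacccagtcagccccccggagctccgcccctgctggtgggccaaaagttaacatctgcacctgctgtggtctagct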

How the data were processed

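Total RNA of tooth and skin was amplified, labelled with Cy3 and hybridised to 1-colour Agilent mouse arrays, 1 per tissue. Per the file headers, the authors deposited linear intensity values written by Agilent Feature Extraction 10.7.3.1, which had subtracted background, removed trends within the array, set surrogates for very dim spots and attached an error to each spot (10% of intensity plus an additive term). The deposited table of the whole series held a ratio of that intensity to 1 factor per array (430.7 for tooth, 274.5 for skin), as the study's methods name a percentile shift in GeneSpring. It was used as an alternative.

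From these intensities, log2 values were computed here, outlier spots were removed, spots of a probe were averaged, and the 75th percentile over each array's non-control probes was subtracted. The brightest probe stood for a gene. A gene entered when well above background in either tissue. If dim in the other, its fold is given as a bound ("at least"), against the lowest signal well above background there or the probe's own, if higher. Symbols came from RefSeq (GRCm38.p6) through 82.1% of the 33182 named probes. Coordinates of probes are mm9, and the exon or UTR under a probe was not analysed here. All genes of the list of 10 were to be named with every probe, relatives with values, other lists by counts with values past 2-fold. The members and lists were chosen with earlier results of these data known. No test was possible with 1 array per tissue. Scaling to the 75th percentile, the median shift and quantile normalization were tested on simulated data. Spike-in scaling, normexp and the bounds for dim values were not. The alternatives were normexp background correction (limma 3.58.1, offset 50, R 4.3.3), median shift, quantile normalization, spike-in scaling, the deposited table, the mean of all probes, both stricter and no filters, and dim values at their bound. Other software was Python 3.11.15 with numpy 2.4.6 and pandas 2.3.3. The number of arrays limits the precision. No spot was saturated, and the median SD among spots of probes with at least 8 spots was 0.08 in tooth and 0.09 in skin (log2).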

Additional observations from a re-analysis of the deposited data

Results flagged for a closer look

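Long non-coding probes within 100 kb of the genes' probes were outside the comparisons above. There were 52 near 4 of the genes, of which 19 gave signal well above background in either tissue and 15 in both. Of these 15, a probe on chromosome 4 (mm9, start 135139520, 41.5 kb from the Grhl3 probe) had a difference of 1.39 ± 0.26, higher in skin. Near Klf4, the probes on chromosome 4 at start 55490650 (49.5 kb away) and start 55611927 (71.7 kb away) had differences of 1.10 ± 0.41 and 1.07 ± 0.22. These 3 were listed because their signal lay outside the main measurement and differed by at least 2-fold. With spike-in scaling all 3 lie below 2-fold. Other probes of the same regions, on either strand and above background on both arrays, stayed below 2-fold. They gave 0.68 near Grhl3 and 0.98, 0.23 and -0.32 near Klf4. Larger measured differences came from probes well above background in skin only. These were 2.66 ± 0.53 near Grhl3 (start 135163980) and 2.07 ± 0.43 near Klf4 (start 55490570). The probe at start 55490650 was dim in tooth (-3.83, where the lowest level above background was -4.52). The share over all long non-coding probes is not given here.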

How the results depend on the processing

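Each of the 10 genes kept its direction under 9 alternatives, except Trp63 with a median shift (-0.084) and with spike-in scaling (-0.46), and Ovol2 with spike-in scaling (-0.18). The count of genes at least 2-fold higher in skin was 7 under the other alternatives, 6 with a median shift and 5 with spike-in scaling, and their median was 1.43 and 1.06 under those. For the 43 other transcription factors, normexp left 3 at least 2-fold higher in tooth, and the median difference was 0.48 with a median shift and 0.11 with spike-in scaling. For the p63 basal targets, 2 were at least 2-fold higher in skin with quantile normalization and 1 with spike-in scaling, and the median was 0.21 with a median shift and -0.16 with spike-in scaling. For the grainyhead-like targets the median was 2.25 with a median shift, 1.87 with spike-in scaling and 1.98 over genes well above background on both arrays. For late differentiation genes it was 5.69 with normexp, 7.13 with a median shift, 6.75 with spike-in scaling, 7.96 with the mean of all probes, 7.07 over genes on both arrays and 7.01 with dim values at their bound. For shared epithelium it was 0.82 with a median shift, 0.83 with quantile normalization and 0.44 with spike-in scaling. Of all 17409 genes, 32.4% were at least 2-fold higher in tooth with spike-in scaling, against 15.5%. These alternatives change the zero point, the background or the genes counted, and the cause of each move was not tested. No paired analysis was possible because each tissue had 1 array, and none could be left out.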
